A study of Mus musculus with 123 samples.

Results

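Fatty acid oxidation was followed through 34 genes, chosen by name from the 15398 genes of the deposited liver expression table, all of which were measured and passed the filter on low values. They comprise 18 genes of mitochondrial oxidation, 9 of peroxisomal oxidation and 7 whose products work in both organelles, at the organelle surface or in other compartments. Livers came from mice fed a high fat diet (HFD, 61 libraries) or a low fat diet (LFD, 62 libraries) under 3 photoperiods, named Long light, Short light and Equal light. Sampling took place at 6 zeitgeber times (ZT), every 4 h from ZT0 to ZT20, which gives 36 groups, 21 of 3 libraries and 15 of 4. A diet and a photoperiod together form an arm, with 20 libraries in HFD Equal light, HFD Long light and LFD Equal light, and 21 in HFD Short light, LFD Long light and LFD Short light. The labels give no strain, sex, age, diet composition, length of feeding, hours of light or definition of ZT0, and name no animals, so that a p-value here sets a difference against the scatter of single libraries only, which may be technical. Values are log2 CPM, a read count scaled to library size, and the reads recovered from them numbered 13.97 to 39.09 M (mega) in a library (median 24.06 M), which makes a single read worth 0.03 to 0.07 CPM.

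Oxidation of long fatty acids starts with their activation to acyl-CoA. Cpt1a, the carnitine carrier Slc25a20 and Cpt2 then move the acyl group into the mitochondrion, where dehydrogenases, hydratases and thiolases shorten it, and the electron transfer flavoproteins pass its electrons to the respiratory chain. Peroxisomes shorten very long and branched chains and hand the products on as carnitine esters, made by Crot and Crat. In liver many genes of both pathways are known targets of the fatty acid receptor PPARα, and several are known to follow the feeding and clock cycle.

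The ends of the coding sequences are shown because some of them code for a signal that sends proteins to peroxisomes. Many peroxisomal matrix enzymes end in a signal of the serine-lysine-leucine type, in which the serine may be alanine or cysteine, the lysine arginine or histidine and the leucine methionine. The last 3 codons fitted this pattern in 0 of 18 mitochondrial, 4 of 9 peroxisomal (Crot, Ehhadh, Hsd17b4 and Decr2) and 3 of 7 dual or other genes (Crat, Ech1 and Acad11), against 0.52% of 21522 coding genes. Below, the last 30 bases of the coding sequence are given with these codons in capitals and the stop codon after them, from GENCODE mouse release 21 (M21) on GRCm38. They are those of 6 genes that fitted, and of Decr1, Eci1, Eci2 and Acaa1b for comparison.
Ehhadh: ttggcaggaccccatagcAGCAAACTGtga
Crot: atacagctgatgaacaccGCTCATCTTtag
Decr2: gagtttgaatccttctctGCTAAGCTGtag
Ech1: acaaaaagcatcaccttcTCCAAGCTCtga
Crat: ctccagaaccaccccaggGCCAAGCTCtga
Acad11: caagccagacggttgacaGCCAGGATGtga
Decr1: gggctcatcaggaagacaAAAGGCTCCtaa
Eci1: ttggaaaagctcaagcaaAAGAAGGGCtaa
Eci2: agcttcgtctccagaaaaCCAAAGCTGtga
Acaa1b: gctgcggtctttgaatacCCTGGGAACtga
Of the related reductases, peroxisomal Decr2 ends in the signal and mitochondrial Decr1 does not. Eci2 ends in the lysine and leucine codons of the signal after a proline codon, outside the pattern searched. Abcd2, Abcd3 and Pex11a encode membrane proteins, and the thiolases of Acaa1a and Acaa1b carry their known signal at the other end of the protein, so an end without the pattern is no mark against their compartment. Ehhadh lies at chr16:21761287-21787807 and Crot at chr5:8966033-8997324, both on the minus strand. Hadha (chr5:30118304-30155162) and Hadhb (chr5:30155248-30184593), the subunits of the trifunctional protein, start head to head on opposite strands.

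RefSeq promoter windows on GRCm38.p6, from 250 bases before the start to 50 bases from it on, were matched for 29 of the 34 genes and for 17492 coding genes. PPARα is known to bind with its partner RXR to a direct repeat of AGGTCA with 1 free base between the copies, which was searched on both strands. The exact repeat was found in 0 of 29 windows (0.06% of all windows). With up to 2 letters different it was found in 3, of Slc25a20, Echs1 and Etfa (3.89% of all windows), and AGGTCA alone in 4, of Cpt1a, Acadvl, Acadm and Echs1 (16.7%). The Echs1 match to AGGTCA lies inside its match to the repeat. Each site is given on the strand of its gene, as 30 bases with the match in capitals. The genes concerned differed between diets, as did 31 of the 34 genes. A link of these sites to diet or time of day was not tested.
Slc25a20 (chr9:108662134-108662163, plus strand): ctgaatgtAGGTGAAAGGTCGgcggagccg
Echs1 (chr7:140116483-140116512, minus strand): gcccgctcAGGTCACGGGTCCaccccttaa
Etfa (chr9:55512299-55512328, minus strand): gcacacccTTACCTTTGCCCTactcccaag
Cpt1a (chr19:3323195-3323224, plus strand): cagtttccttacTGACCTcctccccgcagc
Acadvl (chr11:70015498-70015527, minus strand): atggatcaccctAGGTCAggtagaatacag
Acadm (chr3:153944864-153944893, minus strand): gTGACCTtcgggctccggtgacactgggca
The longer site of estrogen-related receptors TCAAGGTCA, the E-box CACGTG and the D-box TTATGTAA were found in 0 of 29 windows, against 0.38%, 8.91% and 1.05% of all windows. These matches describe letters in short windows only.

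Levels per kilobase of transcript ran over several orders of size. Acaa2, the last thiolase of the mitochondrial spiral, stood at 582.3 CPM per kb averaged over all libraries, Acaa1b, a peroxisomal thiolase, at 554.4 and Acsl1, the main liver enzyme that activates long fatty acids, at 332.5. The peroxisomal transporter Abcd3 stood at 240.0 and its relative Abcd2 at 1.8 CPM per kb. The acyl-CoA thioesterases Acot1 and Acot2 stood at 6.7 and 1.6 CPM per kb. Reads of Acot1 and Acot2, of Acaa1a and Acaa1b, of Hadhb and a pseudogene, and of Etfb and an overlapping gene model can be confused, so their values are uncertain.

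All hepatocyte markers (10 of 10) were present in every library, and 8 libraries were rich in skeletal muscle markers and 11 in pancreas acinar markers, 17 in all (5 HFD, 12 LFD). They were distributed unevenly, with 9 of the 17 in Long light. Library HFD Equal light ZT20 replicate 1 lay farthest from its group over all genes, with a root mean square deviation of 0.63 log2 units against a median of 0.34. It held the lowest value of all libraries for 5 of the genes (Acadvl, Acads, Acaa2, Etfb and Acaa1a) and the highest for 5 others (Hadhb, Decr1, Etfa, Etfdh and Abcd3). LFD Equal light ZT0 replicate 3 was next, at 0.61. Without these 2 libraries 32 of the 34 genes differed between diets, against 31 with them. Over all genes 4244 and 3676 were called.

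The first question was how the pathway differed between diets over all photoperiods and times, with the 18 groups of each diet weighted equally. Of the 34 genes 30 were higher and 1 was lower in HFD, where limma called 12.9% of all 14397 genes tested higher and 12.6% lower. All 18 mitochondrial genes were higher, by 0.08 to 0.45 on the log2 scale. Of these, 14 to 18 passed when a replicate number was left out of every group that has it. Over all genes 1120 to 1642 were then called higher, against 1859 with all libraries. Replicate 4 exists only in the 15 groups of 4 libraries. Without the muscle-rich and pancreas-rich libraries 13 passed, where 1473 of 14309 genes were called higher over the whole table. With all libraries, 6 of 9 peroxisomal genes and 6 of 7 dual or other genes were also higher, with Acsl5 lower. The median difference was 0.19 for mitochondrial, 0.27 for peroxisomal and 0.24 for dual or other genes, against -0.0038 over all genes tested. In bulk liver, more RNA per hepatocyte and more cells of a kind cannot be told apart.

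**Figure D1:**
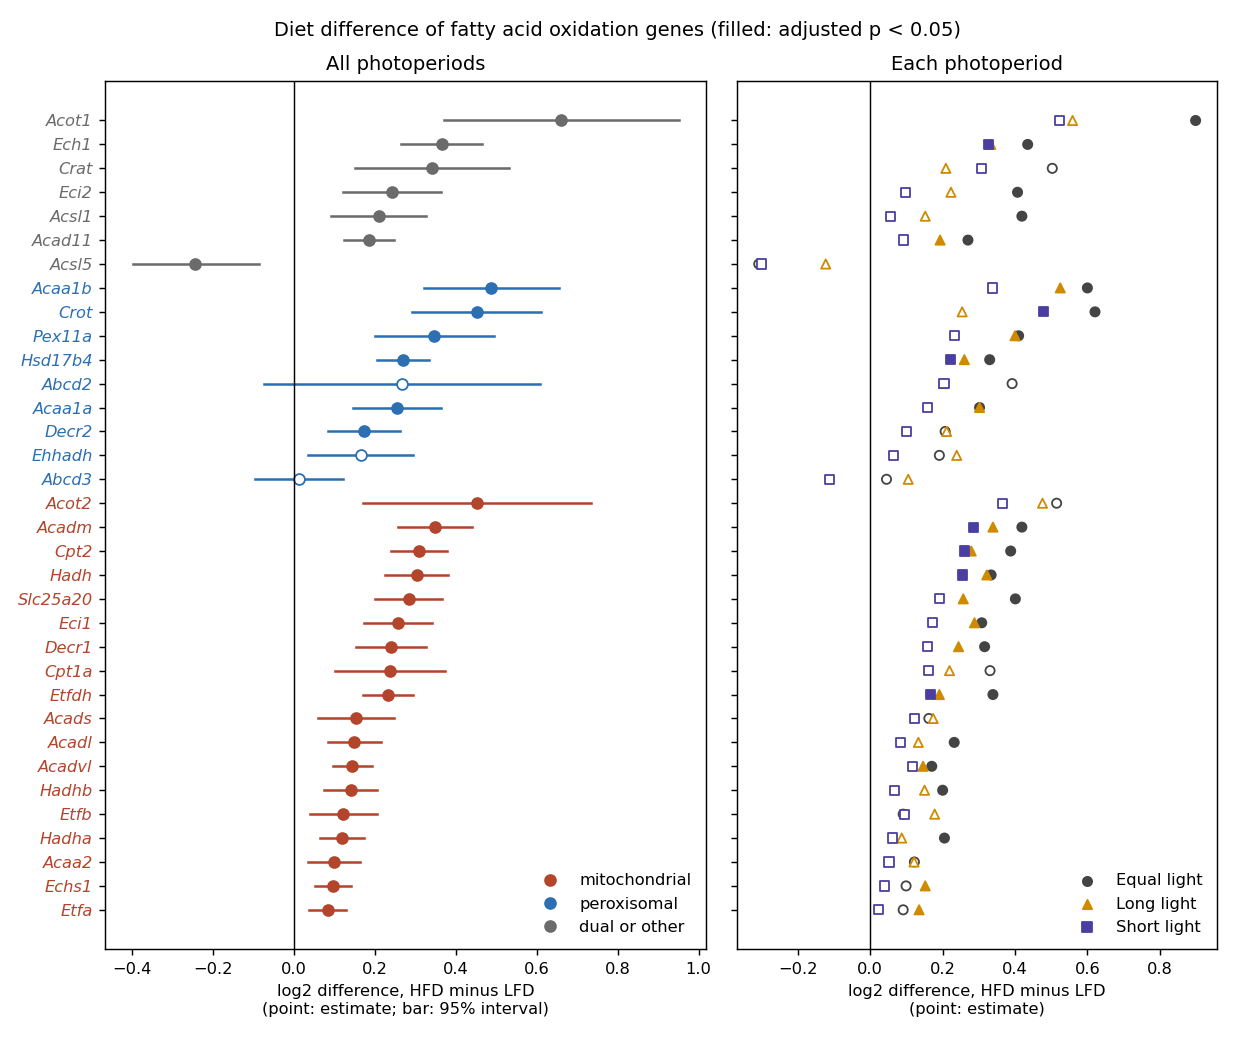
Difference between diets for the 34 genes, on the log2 scale, over all photoperiods with its 95% interval (left) and within each photoperiod (right). Filled points passed an adjusted p of 0.05. Points lie to the right of 0 on the left except for Acsl5, and the intervals of Abcd2 and Abcd3 cross 0.

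Entry into the mitochondrion was led by Cpt2 (chr4:107903981-107923610, minus strand), which ranged from 6.80 to 7.57 log2 CPM in HFD (median 7.25, n = 61) and from 6.39 to 7.56 in LFD (median 6.95, n = 62). Its difference was 0.31 (SE 0.035, adjusted p = 2.19e-11), and it was higher in HFD in each of the 18 pairs of groups matched for photoperiod and time, by 0.04 to 0.53. Slc25a20, the carrier that exchanges acylcarnitine for carnitine, ranged from 6.34 to 7.44 (median 6.88) in HFD and from 5.86 to 7.47 (median 6.61) in LFD. Most of its HFD libraries thus lay above the LFD median, with overlapping ranges, and it rose by 0.28 (SE 0.042, adjusted p = 1.05e-07), in 17 of 18 pairs. Cpt1a, the rate-limiting entry enzyme, ranged from 8.46 to 9.96 in HFD and from 7.80 to 9.99 in LFD. It rose by 0.24 (SE 0.069, adjusted p = 0.0063) in 14 of 18 pairs, and lost the call without replicate 2 of every group (adjusted p = 0.063).

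Inside the mitochondrion the difference was uneven along the spiral. Acadm, the medium-chain dehydrogenase, ranged from 7.59 to 8.69 (median 8.20) in HFD and from 7.24 to 8.52 (median 7.82) in LFD, a difference of 0.35 (SE 0.046, adjusted p = 3.94e-09). Hadh, the dehydrogenase of short hydroxyacyl chains, ranged from 7.93 to 8.89 (median 8.45) in HFD and from 7.70 to 8.83 (median 8.14) in LFD, a difference of 0.30 (SE 0.039, adjusted p = 2.21e-09). Both were higher in HFD in 18 of 18 matched pairs of groups, although single libraries of the diets overlapped. The very-long-chain, long-chain and short-chain dehydrogenases Acadvl, Acadl and Acads differed by 0.14, 0.15 and 0.15. The trifunctional protein genes Hadha and Hadhb differed by 0.12 and 0.14, and the hydratase Echs1 and the thiolase Acaa2 by 0.10 each. The enzymes that prepare unsaturated chains rose more, Eci1 by 0.26 (SE 0.043, adjusted p = 1.47e-06) and Decr1 by 0.24. Of the electron transfer chain, Etfdh, which passes electrons to ubiquinone, ranged from 7.64 to 8.73 (median 8.24) in HFD and from 7.61 to 8.70 (median 8.01) in LFD. Etfdh rose by 0.23 (SE 0.031, adjusted p = 4.94e-09) in 18 of 18 pairs, against 0.08 for Etfa and 0.12 for Etfb, the subunits of the flavoprotein before it. These differences between steps were not tested against each other. Some of these calls were lost with fewer libraries: of 10 alternative analyses, 7 called Etfb (adjusted p up to 0.355), 7 Acaa2 (up to 0.188), 7 Acot2 (up to 0.129), 8 Acads (up to 0.227) and 9 Etfa (up to 0.055). Etfb, Acaa2 and Acads were lost without replicate 3 of every group, Etfb, Acaa2 and Acot2 without replicate 2 and Acot2 without replicate 1, and all 5 without the muscle-rich and pancreas-rich libraries. Cpt1a was lost without replicate 2 (adjusted p = 0.0632). Acot2, near the lower end of the table, differed by 0.45 with a wide 95% interval of 0.17 to 0.73.

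The peroxisomal genes spread more widely. Hsd17b4, the multifunctional enzyme that takes very long and branched chains, ranged from 8.46 to 9.32 (median 8.96) in HFD and from 8.30 to 9.25 (median 8.66) in LFD. It rose by 0.27 (SE 0.032, adjusted p = 1.87e-10), in 18 of 18 pairs of groups and by at least 0.12 in each. Acaa1b ranged from 8.52 to 11.17 (median 10.15) in HFD and from 8.59 to 10.66 (median 9.52) in LFD, a difference of 0.49 (SE 0.084, adjusted p = 3.58e-06). Its near-identical copy Acaa1a rose by 0.25. Crot, which makes octanoylcarnitine for export, ranged from 7.69 to 10.37 (median 9.23) in HFD and from 7.37 to 10.45 (median 8.49) in LFD. Its wide ranges hold a daily cycle described below, and the difference was 0.45 (SE 0.080, adjusted p = 6.39e-06) in 15 of 18 pairs. Pex11a, a membrane protein of peroxisome division, rose by 0.35 (SE 0.074, adjusted p = 0.000152) and the reductase Decr2 by 0.17.

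Of the 9 peroxisomal genes 3 did not pass. Abcd3, the transporter of branched and dicarboxylic acyl-CoA, had a median of 9.66 log2 CPM in both diets and a difference of 0.01 (95% interval -0.10 to 0.12), and was higher in HFD in 7 of 18 pairs. Abcd2, a transporter of very long chains that is sparse in liver, differed by 0.27 with an interval of -0.08 to 0.61. Ehhadh, the bifunctional enzyme of straight chains, differed by 0.17 (adjusted p = 0.0513) and lay so near the threshold that 3 of 10 alternative analyses called it (adjusted p from 0.0251 to 0.23).

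Among the dual or other genes Ech1, an isomerase of unsaturated chains, ranged from 7.31 to 8.79 (median 8.06) in HFD and from 7.01 to 8.39 (median 7.66) in LFD. It rose by 0.36 (SE 0.051, adjusted p = 1.77e-08), in 18 of 18 pairs. Acad11, a dehydrogenase of very long chains, rose by 0.19 (adjusted p = 1.69e-06). Acot1 had the largest difference of all 34, 0.66 (SE 0.146, adjusted p = 0.000276), or 1.58-fold, between medians of 3.89 and 3.22. The acyl-CoA synthetases moved apart: Acsl1 rose by 0.21 and Acsl5 fell by 0.24 (SE 0.078, adjusted p = 0.014). Acsl5 ranged from 8.19 to 10.07 in HFD and from 8.07 to 10.44 in LFD and was lower in HFD in 14 of 18 pairs. It lost the call without replicate 1 (adjusted p = 0.15) and without replicate 3 (adjusted p = 0.0708) of every group, and Acsl1 without replicate 3 (adjusted p = 0.163).

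**Figure D2:**
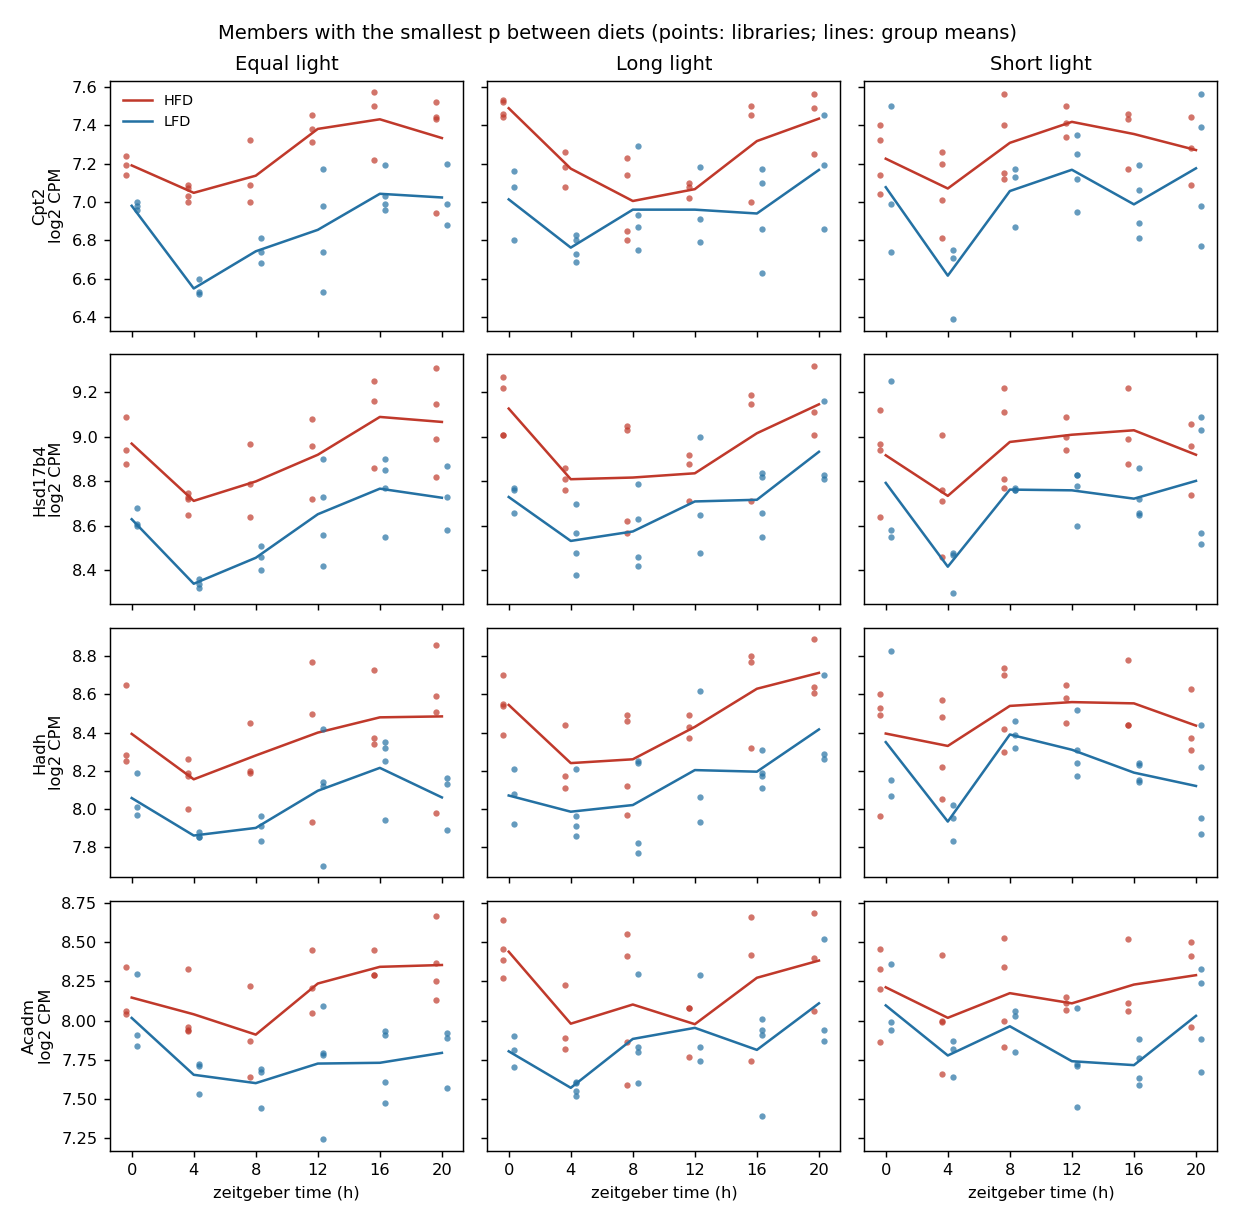
Log2 CPM by zeitgeber time (h) of the 4 genes with the smallest p between diets, with HFD in red and LFD in blue, points for libraries and lines for group means. The HFD line of Cpt2, Hsd17b4, Hadh and Acadm lies above the LFD line at every time in every photoperiod.

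Cell markers moved with diet as well. Of 10 pericentral markers 7 were higher in HFD (median difference 0.30, summed level 6487 to 15651 CPM in HFD and 2659 to 14955 in LFD), and of 10 macrophage markers 7 (median 0.20, 346 to 920 against 304 to 814 CPM). Of 12 pancreas acinar markers 10 were lower (median -1.6, 18.5 to 585 against 13.2 to 3950 CPM), with Clps listed at the floor of the table in 38 HFD and 20 LFD libraries. Of 12 skeletal muscle markers 0 passed, with 1.6 to 1001 CPM in HFD and 1.7 to 1168 CPM in LFD. Of 10 hepatocyte markers 1 was higher and 2 lower, and of 10 periportal markers 1 was lower. No marker of adipocytes (0 of 6) or cholangiocytes (0 of 5) passed. The part of these markers in the diet difference was not tested, except that the 17 libraries with high muscle or pancreas markers were left out. Then 25 of the 34 genes passed, 13 mitochondrial, 6 peroxisomal and 6 dual or other, where 2919 of 14309 genes were called. The median difference over the 34 genes was 0.22, against 0.24 with all libraries. The genes that lost the call then were Acads, Acaa2, Etfa, Etfb, Acot2 and Crat, with adjusted p-values of 0.0507 to 0.0825.

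Within photoperiods the diet difference passed for 21 genes under Equal light (11 mitochondrial, 5 peroxisomal, 5 dual or other), 16 under Long light (10, 4 and 2) and 7 under Short light (4, 2 and 1). All of these were higher in HFD, where 3.5%, 3.22% and 3.74% of all genes were called higher. The median over the 34 genes was 0.32 under Equal, 0.22 under Long and 0.16 under Short light, with 33, 33 and 32 of the 34 genes above 0. Cpt2 stood at 0.39 (adjusted p = 1.26e-05), 0.28 (adjusted p = 0.00141) and 0.26 (adjusted p = 0.00267) in the same order. Hsd17b4 stood at 0.33, 0.26 and 0.22, Acadm at 0.42, 0.34 and 0.29, and Hadh at 0.33, 0.32 and 0.25, and each passed in all 3 photoperiods. Crot passed in Equal light (0.62, adjusted p = 0.00235) and in Short light (0.48, adjusted p = 0.0212) but not in Long light, where it stood at 0.25. Echs1 (0.15, adjusted p = 0.00945) and Acaa1b (0.53, adjusted p = 0.0183) were among the calls of Long light. Abcd3 stood at -0.11 in Short light, opposite to most peroxisomal genes, and Acsl5 at -0.30, and neither passed there (adjusted p = 0.517 and 0.159).

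These counts do not show that photoperiods differ in their response. The test of the diet by photoperiod interaction called 0 of the 34 genes and 0.0% of all genes, with 1 of the 34 at an unadjusted p under 0.05. The adjusted p was 0.999 for Crot. The counts within photoperiods also moved with the libraries used. Without the muscle-rich and pancreas-rich libraries, 0 genes passed in Long light and 2 in Short light. Over all genes 110 and 495 were called in that fit, against 699 and 990 with all libraries. In Long light 33 of 34 genes then remained above 0, with a median of 0.19, 16 unadjusted p-values under 0.05 and a smallest adjusted p of 0.072. Leaving out a replicate number of every group gave 13 to 19 genes under Equal, 1 to 15 under Long and 0 to 5 under Short light. Over all genes 198 to 771, 174 to 604 and 120 to 635 were then called.

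By time of day, averaged over photoperiods, the diet difference passed at ZT4 for 4 genes and at ZT16 for 8, where 1.26% and 1.11% of all genes were called higher. It passed for 0 of the 34 at ZT0, ZT8, ZT12 and ZT20, where 0.292%, 0.153%, 0.0% and 0.368% were called higher, with 15, 8, 21 and 18 of the 34 genes at an unadjusted p under 0.05. At that p there were 1804, 1486, 1143 and 1888 of all 14397 genes. At ZT4 the carnitine entry genes led, Cpt2 at 0.45 (SE 0.084, adjusted p = 0.000705) and Slc25a20 at 0.43 (SE 0.102, adjusted p = 0.00861), with Hsd17b4 at 0.32 and Etfdh at 0.26. In Equal light at ZT4 the 4 HFD libraries of Cpt2 stood at 7.0, 7.03, 7.07 and 7.09. The 3 LFD libraries stood at 6.52, 6.53 and 6.60, so the diets did not overlap there. Over all photoperiods at ZT4 the ranges of Cpt2 overlapped, 6.81 to 7.26 in HFD and 6.39 to 6.83 in LFD. At ZT16 Acadm stood at 0.53 (SE 0.111, adjusted p = 0.00247), Etfdh at 0.35, Cpt2 at 0.38, Hadh at 0.35 and Acadvl at 0.20, with peroxisomal Crot at 0.89 (SE 0.194, adjusted p = 0.00358) and Hsd17b4 at 0.31, and Ech1 at 0.53. The HFD libraries of Crot at ZT16 were at 9.10, 9.27 and 9.63 in Equal light, against 7.75, 8.07, 8.31 and 8.45 in LFD. In Short light they were at 9.51, 9.52 and 9.67 against 7.91, 8.65, 8.69 and 8.83. In Long light they were at 7.83, 8.78 and 8.81 against 7.63, 8.06, 8.15 and 8.31. The diets of Crot at ZT16 thus did not overlap in Equal and Short light and did in Long light. The test of the diet by time interaction called 0 of the 34 genes and 0.0% of all genes, and 0 of the 34 had an unadjusted p under 0.05, so that no time was shown to differ from another. Without replicate 1 of every group 0 genes passed at ZT4 and 0 at ZT16. Over all 14234 genes tested 35 and 6 were then called.

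Photoperiods were then compared over both diets and all times. Of the 34 genes 0 passed in Long against Short light, Long against Equal light or Short against Equal light, where limma called 0.0%, 0.0278% and 0.00695% of all genes. Long and Short light lay close, with differences of -0.11 to 0.16, a median of -0.01, a median 95% interval of ± 0.11 and 0 genes at an unadjusted p under 0.05. Against Equal light, 31 of 34 genes were higher in Long light (median 0.10) and 33 of 34 in Short light (median 0.10). At an unadjusted p under 0.05 there were 17 and 15 of the 34 genes, and 2106 and 2385 of all 14397 genes. The 2 comparisons share the Equal light libraries. The medians over all genes tested were -0.0009 and -0.003. In Long light Acaa1b stood at 0.29 and Ech1 and Acaa1a at 0.17 each, with a smallest adjusted p over the 34 genes of 0.207. In Short light Acaa1a stood at 0.24, Decr2 at 0.19 and Cpt1a at 0.25, with a smallest adjusted p of 0.111.

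The daily cycle was fitted as a 24 h cosine in each arm. The number of genes with a rhythm was 10 in HFD Equal light, 17 in HFD Long light and 4 in HFD Short light, and 9, 15 and 3 in the LFD arms in the same order. Over all genes 16.5%, 21.8%, 14.1%, 20.9%, 23.6% and 27.1% were called. These counts moved with the libraries used, so no order of the arms is read from them. Leaving out a replicate number gave 1 to 6, 5 to 20 and 1 to 5 genes in HFD Equal, Long and Short light. In LFD it gave 3 to 12, 6 to 13 and 3 to 6. Over all genes 944 to 2248, 1114 to 2540 and 844 to 1634 were then called in HFD. In LFD 1049 to 3171, 1782 to 2993 and 1608 to 3791 were called. Leaving out the rich libraries gave 4 genes in LFD Equal light, where 2148 of 14309 genes were called over the whole table, and 5 in LFD Long light. The amplitude, from mean to peak and averaged over the 6 arms, had a median of 0.14 for mitochondrial, 0.26 for peroxisomal and 0.30 for dual or other genes, against 0.16 over all genes tested. A fitted amplitude is never negative and grows with the scatter, so these medians are a description: the SE was 0.28 to 0.29 for Abcd2 and 0.24 to 0.25 for Acot2, against 0.04 for Etfa and Echs1. Mitochondrial genes reached 0.36 (Cpt1a) and went down to 0.05 (Etfa), and peroxisomal genes lay between 0.16 (Hsd17b4) and 0.77 (Crot).

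**Figure D3:**
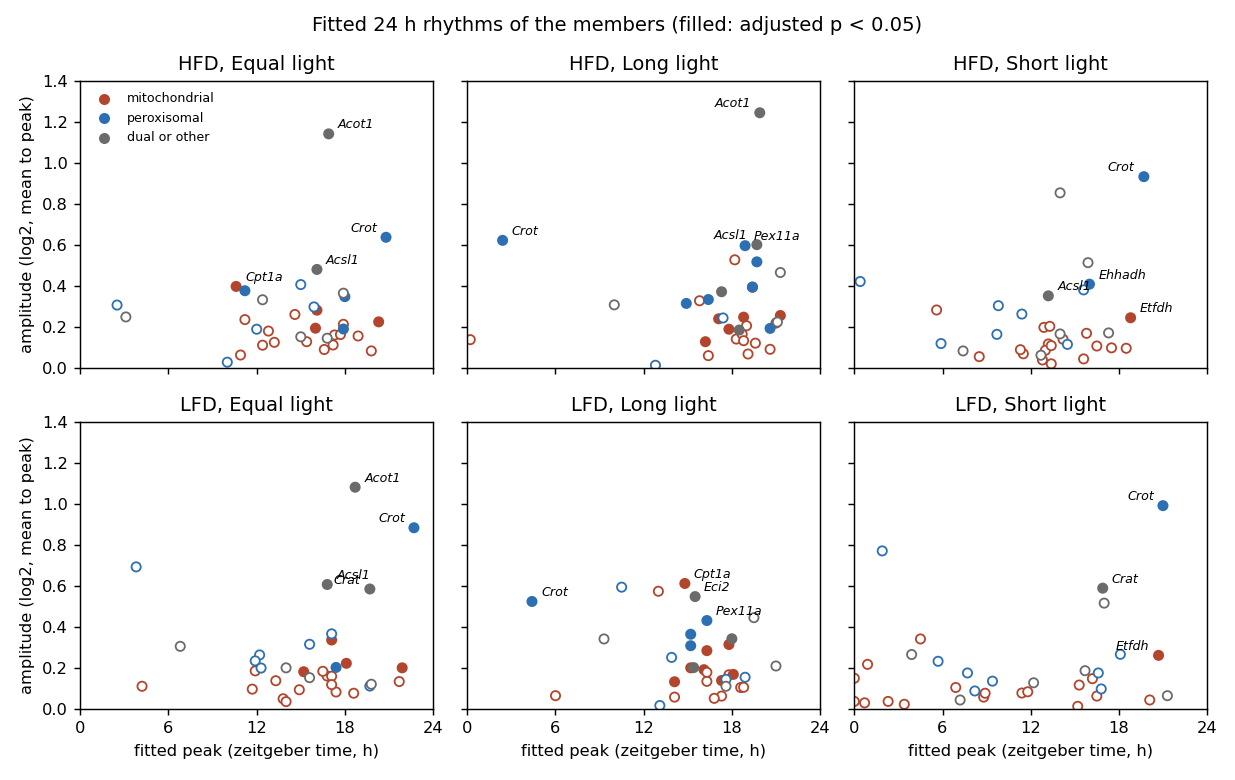
Fitted amplitude (log2, mean to peak) against fitted peak (zeitgeber time, h) of the 34 genes in each arm, coloured by compartment. Filled points passed an adjusted p of 0.05, and they peak between 12 and 24 h, apart from Crot in Long light at 2.4 h in HFD and 4.4 h in LFD, and Cpt1a (10.6 h) and Acaa1a (11.2 h) in HFD Equal light.

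Crot was rhythmic in all 6 arms, more than any other of the 34 genes. In HFD Equal light its libraries stood at 9.45, 9.52 and 9.60 at ZT0, at 8.24, 8.48 and 8.54 at ZT8, and at 9.23, 9.89, 9.92 and 9.94 at ZT20. In LFD Short light they stood at 8.58, 9.08 and 9.77 at ZT0, at 7.73, 7.74 and 7.94 at ZT8, and at 9.45, 9.61, 10.08 and 10.45 at ZT20. The libraries of the middle of the cycle lay below those of ZT20 and ZT0 in both arms, without overlap. In HFD Long light they were at 9.63, 9.64, 9.79 and 9.85 at ZT0, at 7.69, 9.13, 9.42 and 10.22 at ZT8, and at 8.35, 8.58 and 9.45 at ZT20, a different order of times. The amplitude of Crot was 0.64, 0.62 and 0.93 in HFD Equal, Long and Short light and 0.88, 0.52 and 0.99 in LFD, or 2.07-fold to 3.96-fold from trough to peak.

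The fitted peak of Crot fell at 20.8 h in HFD Equal light, 2.4 h in HFD Long light and 19.7 h in HFD Short light, each with an SE of 0.6 to 0.9 h. In LFD it fell at 22.7, 4.4 and 21 h. Long light thus placed the peak 5.6 h (SE 1.2) later than Equal light in HFD and 5.8 h (SE 1.2) later in LFD, and 6.7 and 7.4 h later than Short light. Short light placed it 1.1 h (SE 1.0) earlier than Equal light in HFD and 1.7 h (SE 0.8) earlier in LFD. The test of a difference in rhythm between photoperiods gave an adjusted p of 5.96e-11 for Crot. Times are counted from ZT0 as labelled, and whether ZT0 marks the same event in each photoperiod is not stated. Crot passed in at least 5 arms under each of the 11 alternative analyses. It lost HFD Long light without replicate 1 of every group (adjusted p = 0.0648) and HFD Equal light without replicate 3 (adjusted p = 0.0807).

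**Figure D4:**
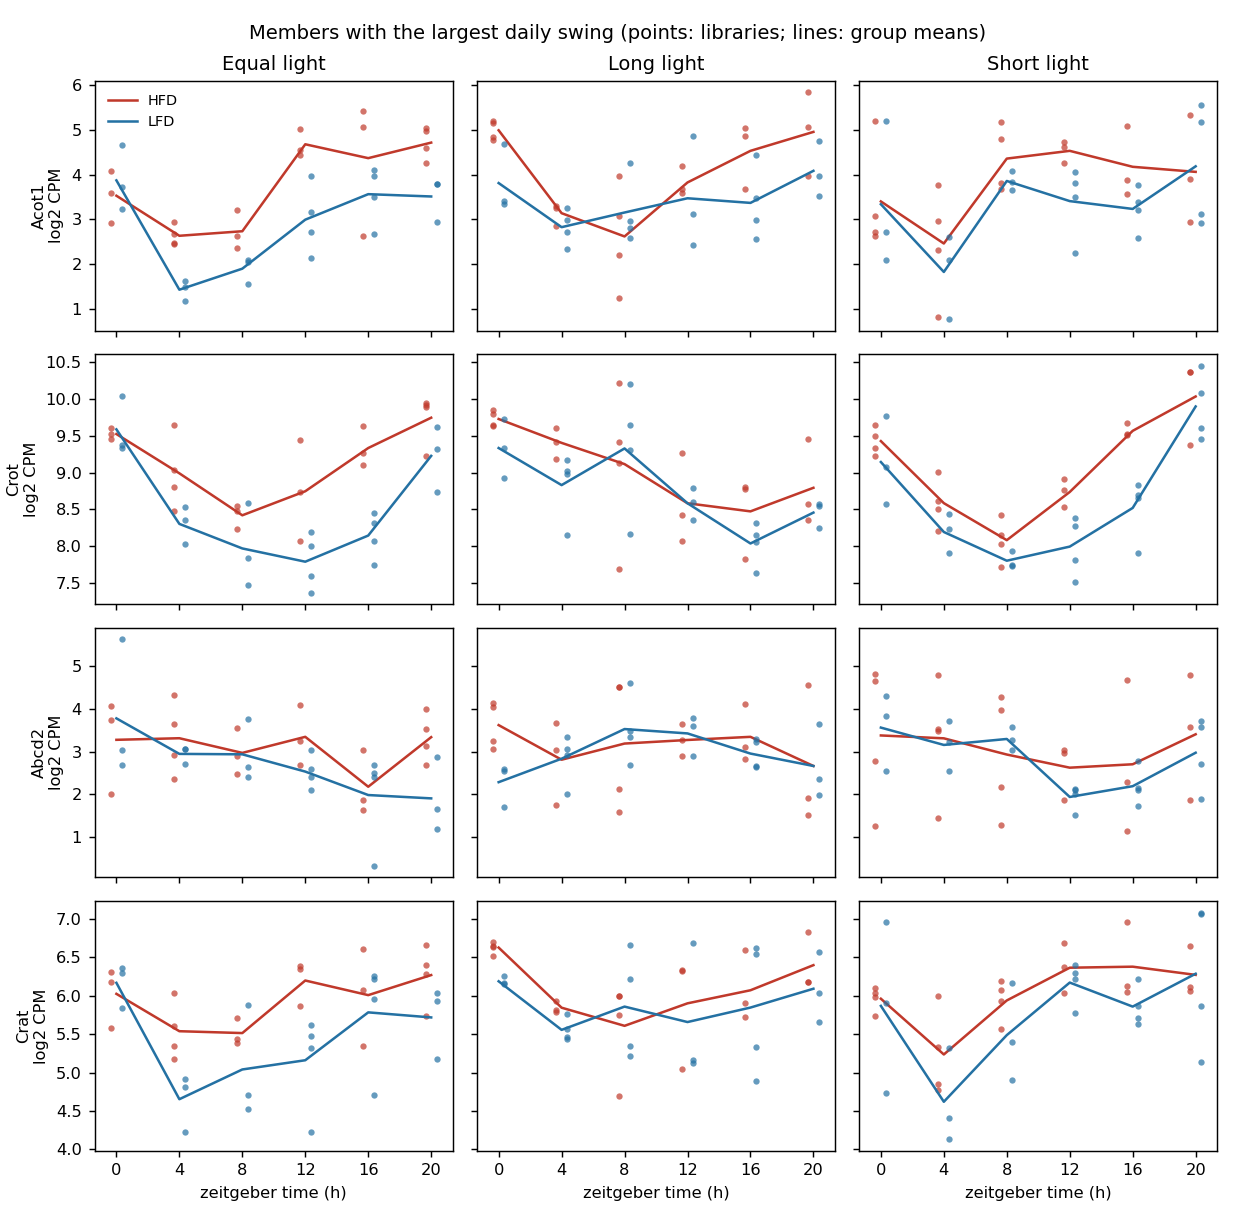
Log2 CPM by zeitgeber time (h) of the 4 genes with the largest mean amplitude, with HFD in red and LFD in blue, points for libraries and lines for group means. Crot is lowest at ZT8 or ZT12 in Equal and Short light and at ZT16 in Long light, while Abcd2 shows wide scatter at each time.

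Acot1, the thioesterase that returns acyl-CoA to free fatty acid in the cytosol, had the largest mean amplitude, 0.88. Its group means in HFD Equal light were 3.53, 2.64, 2.74, 4.68, 4.37 and 4.72 from ZT0 to ZT20, low from ZT4 to ZT8. In LFD Equal light they were 3.88, 1.43, 1.90, 2.99, 3.56 and 3.51, lowest at ZT4. It was rhythmic in HFD Equal light (adjusted p = 0.00385), HFD Long light (adjusted p = 0.00105) and LFD Equal light (adjusted p = 0.0079), with peaks at 16.9, 19.9 and 18.7 h. Crat, which makes acetylcarnitine, had a mean amplitude of 0.45 and passed in LFD Equal light and LFD Short light. In LFD Short light its group means were 5.86, 4.62, 5.49, 6.17, 5.86 and 6.28, again lowest at ZT4. Abcd2 had a fitted mean amplitude of 0.47 but passed in 0 arms, and its libraries spread widely within a group, as at ZT8 in HFD Short light, where they stood at 1.29, 2.18, 3.98 and 4.29.

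Acsl1 passed in 5 of 6 arms, with a mean amplitude of 0.43 and peaks at 16.1, 19.7 and 13.2 h in HFD Equal, Long and Short light. Among mitochondrial genes Slc25a20 passed in 4 arms, peaking at 16.1 to 19.4 h, and Etfdh in 4, peaking at 18.8 to 21.9 h. Cpt2 passed in 3 arms and Cpt1a in 2, HFD Equal light with a peak at 10.6 h and LFD Long light with one at 14.8 h and an amplitude of 0.61 (adjusted p = 0.000113). Pex11a passed in both Long light arms, with amplitudes of 0.60 and 0.43. Over the 11 alternative analyses Acsl1 passed in 2 to 5 arms, Slc25a20 in 2 to 4, Etfdh and Acot1 in 1 to 4, Hsd17b4 in 0 to 4, Cpt1a in 1 to 3, Cpt2 and Ehhadh in 0 to 3, and Pex11a and Crat in 0 to 2. Acot2 had a mean amplitude of 0.32 and passed in 0 arms. Acadvl, Acadm, Acads, Eci1, Etfa, Etfb, Acot2, Abcd2, Ech1 and Acsl5 passed in no arm (10 of the 34), and in at most 1 arm under any of the 11 alternative analyses.

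Rhythms did not differ between diets for any of the 34 genes at the threshold (0 called, 1 at an unadjusted p under 0.05, with 0.00695% of all genes called). Between photoperiods 16 of 34 differed, 8 mitochondrial, 4 peroxisomal and 4 dual or other, where 49.1% of all genes were called, a share near that of the 34. Besides Crot the smallest adjusted p-values were those of Cpt1a (1.69e-06), Eci2 (9.62e-06), Decr2 (5.54e-05) and Acaa1a (5.63e-05). Acsl1 peaked 3.6 h (SE 1.1) later in Long than in Equal light in HFD and 6.5 h (SE 1.3) later than in Short light. In LFD Acsl1 peaked 1.2 h (SE 1.3) later in Long than in Equal light. Among genes rhythmic in both, this shift ran from 0.7 h (SE 1.3, Slc25a20 in LFD) to 5.8 h (SE 1.2, Crot in LFD). Cpt2 peaked 5.3 h (SE 1.5) later in Long than in Equal light in HFD.

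**Figure D5:**
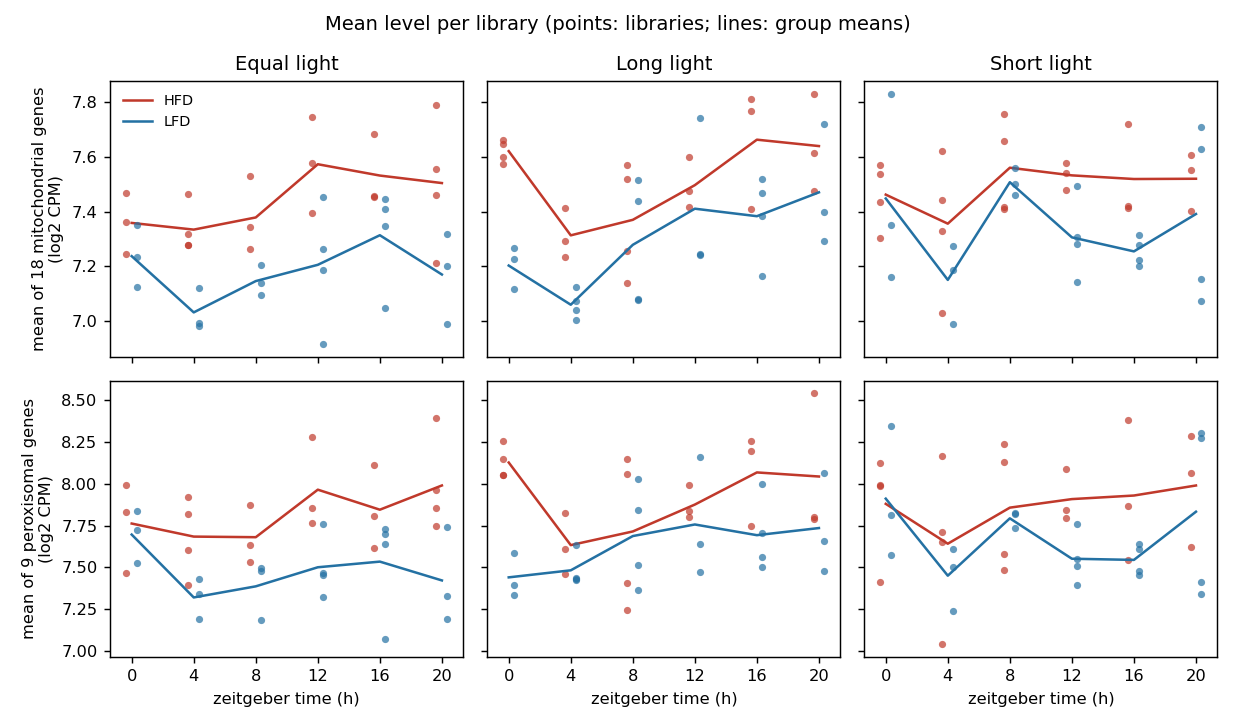
Mean log2 CPM per library of the 18 mitochondrial genes (top) and the 9 peroxisomal genes (bottom) by zeitgeber time (h), with HFD in red and LFD in blue, points for libraries and lines for group means. The LFD line of the mitochondrial mean is lowest at ZT4 in each photoperiod, and single libraries of the diets overlap.

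Mitochondrial and peroxisomal genes were set side by side as the mean log2 CPM of each compartment per library. For HFD the mitochondrial mean was 7.48 ± 0.17 (SD, n = 61), for LFD 7.28 ± 0.21 (SD, n = 62), and the peroxisomal mean 7.86 ± 0.30 and 7.60 ± 0.27. The diets overlapped in both, from 7.03 to 7.83 in HFD and 6.92 to 7.83 in LFD for the mitochondrial mean. Mitochondrial minus peroxisomal was -0.38 ± 0.17 in HFD and -0.32 ± 0.13 in LFD. By time the LFD mitochondrial mean was lowest at ZT4, 7.08 ± 0.10 (SD, n = 10), and 7.30 to 7.35 at the other times. The LFD peroxisomal mean was also lowest at ZT4, 7.42 ± 0.14 (SD, n = 10), against 7.59 to 7.68 at the other times. In HFD the means at ZT4 were 7.34 ± 0.15 and 7.65 ± 0.30 (SD, n = 11), against 7.44 to 7.57 and 7.76 to 8.01 later and at ZT0. No test was made of these means, since their genes were chosen with results known.

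Genes of both compartments also varied together between libraries of the same group. After the mean of each group was removed, the median correlation over all libraries was 0.56 among the 153 pairs of mitochondrial genes, 0.52 among the 36 peroxisomal pairs and 0.47 among the 162 mixed pairs. These are descriptions over libraries that share depth and scaling, with no test. Hsd17b4 followed the mean of the mitochondrial genes most closely of all peroxisomal genes (r = 0.91), and Crot (0.24), Abcd3 (0.21) and Acsl5 (-0.23) followed it least. The SD within groups ran from 0.12 log2 units for Echs1 and Etfa to 0.79 for Acot2, 0.82 for Acot1 and 0.96 for Abcd2, the 3 genes of lowest level per kilobase.

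Other genes of the same pathways were counted from lists of their names. These lists were drawn up with earlier results of these data known, so the counts are a description. Over all genes tested 12.9% were called higher and 12.6% lower in HFD. Of 19 further mitochondrial oxidation genes 12 were higher and 1 lower in HFD (median 0.09), led by Hsd17b10, a dehydrogenase of branched short chains (0.38, adjusted p = 8.43e-11), the methylmalonyl-CoA mutase Mmut (0.12), the synthetase Acsf2 (0.25) and the carboxylase subunit Pccb (0.12). The gene that fell was Acacb, whose product makes the malonyl-CoA that inhibits Cpt1a, with the largest difference of the list, -0.83 (adjusted p = 0.000133). Of 22 further peroxisomal and acyl-CoA genes 11 were higher and 1 lower (median 0.14). The reductase Pecr rose by 0.20 (SE 0.035, adjusted p = 6.91e-06). Acsl4, a synthetase that prefers arachidonic acid, fell by 0.47 (SE 0.070, adjusted p = 1.36e-07), so that the 2 synthetases Acsl4 and Acsl5 were lower while Acsl1 was higher. Of 15 peroxins, the proteins that build peroxisomes, 8 were higher and 0 lower (median 0.07), with Pex11g at 0.16, Pex3 at 0.14 and Pex13 at 0.10. Of 7 ketogenesis and ketone transport genes 4 were higher and 0 lower (median 0.23). The thiolase Acat1 rose by 0.35 and the dehydrogenase Bdh1 by 0.23. The transporters Slc16a1 and Slc16a6 and the ketone-using Oxct1 did not pass, at -0.12, -0.05 and -0.17.

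Regulators were mixed. Of 15, 3 were higher and 2 lower (median 0.05), at a background of 12.9% higher and 12.6% lower. The receptors Pparg and Ppara rose by 0.80 (SE 0.126, adjusted p = 4.07e-07) and 0.26 (SE 0.055, adjusted p = 0.000129), and Creb3l3, a liver transcription factor of fasting, by 0.23. The coactivators Ppargc1a and Lpin1 fell by 0.33 (SE 0.072, adjusted p = 0.000224) and 0.63 (SE 0.140, adjusted p = 0.000302). Of 14 PPARα target genes outside oxidation 9 were higher and 0 lower (median 0.34): Aldh3a2 rose by 0.75, Vnn1 by 0.93, Creg1 by 0.26 and the carnitine importer Slc22a5, which is also in the mitochondrial list, by 0.38.

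The single genes with the largest mean amplitude in these lists were regulators. The nuclear receptors Nr1d1, Nr1d2 and Ppard had mean amplitudes of 2.43, 1.52 and 1.39 and were rhythmic in all 6 arms. Among targets outside oxidation Cyp4a14, Pdk4 and Cyp4a10 had mean amplitudes of 1.38, 1.23 and 1.09 and passed in 1, 5 and 2 arms. Of the peroxisomal list the thioesterases Acot3 (1.10) and Acot4 (0.52) passed in 2 arms each and Hacl1, the lyase of branched chain alpha-oxidation, with 0.61 in all 6. Of the peroxins Pex26 (0.40) passed in 4 arms, and Pex16 and Pex6 stayed at 0.15. In ketogenesis Slc16a1 (0.51) passed in 6 arms and Slc16a6 (0.47) in 4, and Oxct1 (0.27) in 0. In the mitochondrial list Acacb (0.65) passed in 0 arms, Slc22a5 (0.34) in 3 and Acsm5 (0.24) in 1.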

How the data were processed

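The authors deposited log2 CPM per gene and library, from poly-A RNA sequenced as pairs of 52 bases, per the labels' protocols. Reads went through STAR and featureCounts (Subread 1.6.2) on mm10 (GRCm38), per the submitters' processing notes. For the CPM scaling, the strand setting and the annotation, nothing is given in the sources used here. The linear values came out as whole reads for 100% of the lower values tested (tolerance 0.05 reads) after removal of a floor of 0.08176 CPM. The 14397 genes that reached 1 CPM in 3 or more libraries were fitted with limma 3.58.1 (R 4.3.3), trended, with a mean for each of the 36 groups, and with a 24 h cosine per arm. Benjamini-Hochberg adjustment covered the whole table, the threshold was 0.05, and intervals cover 95%. The members and lists were chosen with earlier results of these data known. Named were, by comparison, up to 6 mitochondrial, 5 peroxisomal and 3 other genes of smallest p, those opposite to their compartment, and the 8 of largest amplitude. Of each further list up to 4 genes of smallest p and 3 of largest amplitude were named, and some of these are not reported here. Library values are for 8 genes, and further values of members are given as description. Alternatives were no filter, centring, limma-voom on recovered reads with median-ratio scaling (chosen after seeing the data, in place of TMM), library number as covariate, leaving out libraries or replicate numbers, and a test among time means without a cosine. The fits were also run on simulated counts with known differences, and the outcome is not reported here. Those counts had the same setting of scatter for every gene and none shared between genes, unlike these data.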

Additional observations from a re-analysis of the deposited data

Results flagged for a closer look

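Single libraries far from the others of their group were looked for in the 15 groups of 4 libraries. This was done for each of 8 genes with values by library, 120 sets in all, where chance marks about 1 in 20. The sets of a group share its libraries. Of the 120 sets 7 were marked. Crot stood at 9.23 log2 CPM in HFD Equal light ZT20 replicate 4, below a group median of 9.90. Cpt2 stood at 6.94 in HFD Equal light ZT20 replicate 1 (median 7.44), the library that lay farthest from its group over all genes. Acadm stood at 8.33 in HFD Equal light ZT4 replicate 2 (median 7.95), the highest of 4, and at 7.39 in LFD Long light ZT16 replicate 2 (median 7.93). Hadh stood at 7.96 in HFD Short light ZT0 replicate 3 (median 8.51). Abcd2 stood at 0.32 in LFD Equal light ZT16 replicate 1 (median 2.46) and at 1.51 in LFD Short light ZT12 replicate 3 (median 2.07).

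The daily cycle differed between photoperiods for 16 genes, by limma's test of the difference over both diets. Of the mitochondrial genes the adjusted p was 1.69e-06 for Cpt1a, 0.0016 for Slc25a20, 0.0269 for Cpt2, 0.0478 for Acadl, 0.0416 for Hadh, 0.00226 for Echs1, 0.0021 for Acaa2 and 0.000293 for Etfdh. Of the peroxisomal genes it was 5.96e-11 for Crot, 5.63e-05 for Acaa1a, 5.54e-05 for Decr2 and 0.000897 for Pex11a. Of the others it was 9.62e-06 for Eci2, 0.0165 for Acad11, 0.000129 for Acsl1 and 0.0171 for Acot1. The same test called 49.1% of all genes.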

How the results depend on the processing

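Over all photoperiods 26 to 32 of the 34 genes differed between diets when a replicate number was left out of every group. Without the 17 muscle-rich or pancreas-rich libraries 25 did. Over all genes 2277 to 3264 and 2919 were called in these fits, against 3676 with all libraries. Other counts moved more when a replicate number was left out. They were 13 to 19 in Equal light, 1 to 15 in Long light and 0 to 5 in Short light. At ZT0, ZT4, ZT8 and ZT16 they were 0 to 1, 0 to 3, 0 to 1 and 0 to 9. Over all genes the counts were 198 to 771, 174 to 604 and 120 to 635 by photoperiod. By time they were 1 to 54, 35 to 185, 0 to 127 and 6 to 304. Rhythm counts with a replicate left out were 1 to 6, 5 to 20 and 1 to 5 in HFD Equal, Long and Short light. In LFD they were 3 to 12, 6 to 13 and 3 to 6, and 7 to 19 for the difference between photoperiods. Over all genes 944 to 2248, 1114 to 2540 and 844 to 1634 were called in HFD. In LFD 1049 to 3171, 1782 to 2993 and 1608 to 3791 were called, and 4942 to 6777 for the difference. The list of other mitochondrial genes gave 8 to 12 and the peroxins 5 to 8. These fits use fewer libraries by construction. Leaving out replicate 4 removes libraries from the 15 groups of 4 only. Without the rich libraries the counts were 0 in Long light, 2 in Short light and 1 at ZT4. For rhythms they were 4 in LFD Equal light, 5 in LFD Long light and 9 for the difference between photoperiods. Over all 14309 genes tested 110, 495, 78, 2148, 1456 and 5666 were called in the same order. Without the 2 libraries farthest from their group 1 gene passed at ZT20, where 169 of 14353 genes were called over the whole table. A test among the 6 time means per arm, with no cosine, called 5, 7 and 2 genes in HFD Equal, Long and Short light. In LFD it called 5, 9 and 7. Over all 14397 genes it called 1641, 1696 and 1491 in HFD and 2296, 2631 and 3561 in LFD. The sign turned for Abcd2, which ran from -0.056 to 0.392 when a replicate number was left out, and for Abcd3, which then ran from -0.023 to 0.046 and stood at -0.009 without replicate 3, at -0.036 without the rich libraries and at -0.013 without the 2 far libraries, and the diet difference of neither gene passed in any of these fits. The cause was not tested. No paired analysis was possible because the labels give no replicate numbers and the numbers used here follow the order of the libraries. Abcd2, Acot1 and Acot2 were low and scattered widely within groups, and the part of depth in that scatter was not tested. The planned voom fit with TMM scaling is not given here, and median-ratio scaling, chosen after seeing the data, took its place.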
